A study of Homo sapiens with 6 samples.

Results

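Cell junction genes encode the proteins that hold neighbouring epithelial cells together. The 34 genes described here were picked by symbol in the mRNA table of 19912 rows, from 4 kinds of contact: tight junctions, adherens junctions, desmosomes and gap junctions, with the polarity proteins that place them. All 34 symbols were found, each in 1 row. Expression was measured by RNA sequencing in 6 libraries labelled Panc-1, a line from a human carcinoma of the pancreatic duct, with the phenotype gemcitabine resistance. The 3 libraries labelled shSRSF3 (knockdown) carry a short hairpin RNA against the splicing factor SRSF3, and the 3 labelled ctrl are the controls. No label says whether the resistant cells are 1 clone, whether the replicates are separate cultures or what the controls carried, so the p-values cover no more than the differences among these 6 libraries, and those may be technical. Values are the authors' FPKM, fragments per kilobase and per total fragments of a library.

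Tight junctions lie nearest the apical side and seal the space between cells: claudins, occludin and related 4-pass membrane proteins form the strands, and ZO scaffold proteins tie them to actin. Adherens junctions below them join cells through classical cadherins, whose tails bind catenins that connect to actin. Desmosomes join cells through desmogleins and desmocollins, linked by plakoglobin, plakophilins and desmoplakin to keratin filaments. In carcinoma cells these genes are read as a measure of epithelial state, because repressors such as SNAI1 and ZEB1 lower CDH1 and several claudins.

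SRSF3 itself did not pass the test between the groups. It stood at 36.9, 37.1 and 38.6 FPKM in knockdown-labelled libraries, against 37.0, 39.6 and 39.2 FPKM in controls (log2 change -0.04, 95% interval from -0.15 to 0.07, limma adjusted p = 0.612; exact two-sided permutation p = 0.3, where 0.1 is the smallest possible). Each direction below is therefore that of libraries carrying the knockdown label. Recovered library totals ran from 24558238 to 27351642 fragments. The libraries were epithelial by their markers: KRT8 averaged 1760.4 ± 150.2 FPKM in knockdown-labelled libraries and 1613 ± 46.8 FPKM in controls (SD, n = 3 each, as for all means below), and over the 6 libraries KRT18, KRT19 and SOX9 averaged 1562, 419.6 and 114.5 FPKM, while KRT7 and MUC1 averaged 0.166 and 0.659 FPKM. The 5 mesenchymal markers VIM, FN1, CDH2, SPARC and ZEB1 summed to between 0.293 and 0.403 FPKM in knockdown-labelled libraries and between 0.349 and 0.398 FPKM in controls. VIM lay between 0.00709 and 0.0389 FPKM in every library, although PANC-1 is usually described as a vimentin-expressing line. ACTN4 was also listed near 0, at a mean of 0.0435 FPKM, beside 45.4 FPKM for ACTN1. How far a listed value near 0 reflects the cells was not tested. Markers of other cell types were near 0, with sums of at most 0.446 FPKM for fibroblasts, 0.0554 FPKM for leukocytes and 0.277 FPKM for endothelium, and COL1A2, PTPRC and LYZ at 0 in all 6. Mitochondrial mRNAs summed to 108068, 84716 and 73651 FPKM in knockdown-labelled libraries 1, 2 and 3, against 70369 to 74760 FPKM in controls. Immediate early and heat shock genes summed to 274.2 to 278.3 FPKM in knockdown-labelled libraries, against 240.0 to 246.2 FPKM in controls. Of the 8 tested, 3 were higher and 0 lower (median log2 change 0.15), beside 10.9% and 5.91% of all tested genes. These were JUN, EGR1 and IER2 (limma adjusted p = 2.73e-04, 0.00203 and 0.00863), each passing in 14 of 14 alternatives. The part of these differences in the results below was not tested.

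Of the junction genes tested, 4 passed the test between the groups. Of the 34, 30 had a mean of at least 0.5 FPKM and were tested in the limma fit over all 10823 genes (Benjamini-Hochberg adjustment, threshold 0.05, on log2(FPKM + 1), a scale that understates the change of low genes). The desmosomal cadherins DSC2 and DSG2 and the claudin CLDN7 fell in knockdown-labelled libraries, and the polarity gene PARD3 rose. These 4 are 13.3% of the tested members, against 16.8% of all tested genes. The 1 higher member is 3.33% of those tested, against 10.9% of all genes, and the 3 lower members are 10.0%, against 5.91% of all genes. Junction genes were not tested as a set. With quantile normalization 8 members passed on the lower side, beside 7.47% of all genes, and without control library 3 the count of members called was 0, beside 3.59% of all genes higher and 2.42% lower in that fit. The median log2 change of the members was -0.01, beside 0.02 over all tested genes, and 14 changes were above 0 and 16 below.

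**Figure D1:**
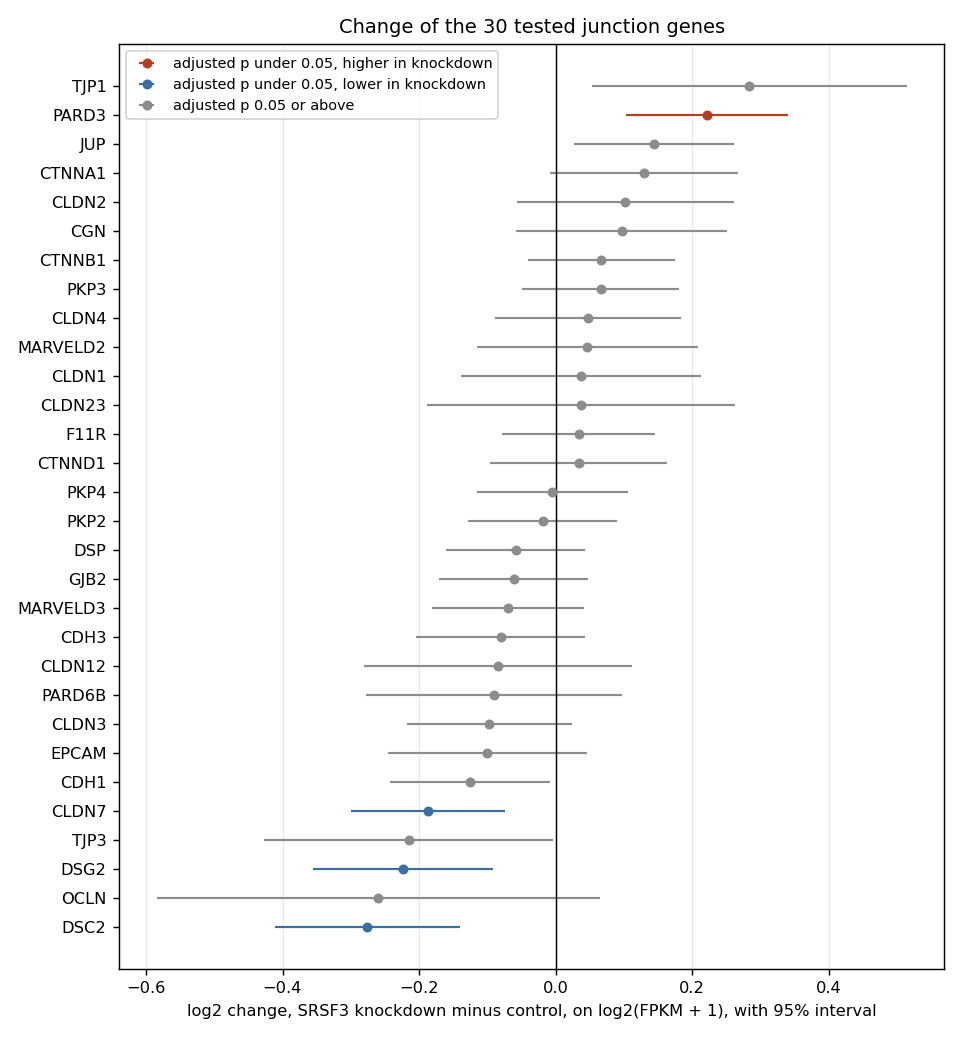
Log2 change (SRSF3 knockdown minus control) of the 30 tested junction genes on log2(FPKM + 1), with 95% limma intervals, ordered by size. DSC2, DSG2 and CLDN7 (blue) are past the threshold on the lower side and PARD3 (red) on the higher side, and all 30 estimates lie between -0.28 and 0.28.

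For 23 of the 26 members that did not pass, the 95% interval lay within 0.3 on either side of 0 on the log2 scale. The exceptions were OCLN, TJP1 and TJP3, whose intervals reached -0.58, 0.51 and -0.43. On log2(FPKM + 1) the intervals of low genes such as CLDN1, CLDN23 and MARVELD2 are narrowed, so they do not bound the fold change. A p above the threshold does not show that a level was the same. Groups did not overlap in 11 of the 30 members (36.7%), against 37.9% of all tested genes.

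Levels differed widely between genes. EPCAM, CLDN7, CDH1, DSP, JUP, PKP3 and GJB2 were the most abundant per length, and 15 members averaged at least 20 FPKM. A further 11 lay between 1 and 20 FPKM, and 8 lay below 1 FPKM. In the order of mean levels, EPCAM stood above CLDN7 and CLDN7 above CDH1 in every library, while the ranges of 21 of the 33 neighbouring pairs overlapped, CDH1 and DSP among them.

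**Figure D2:**
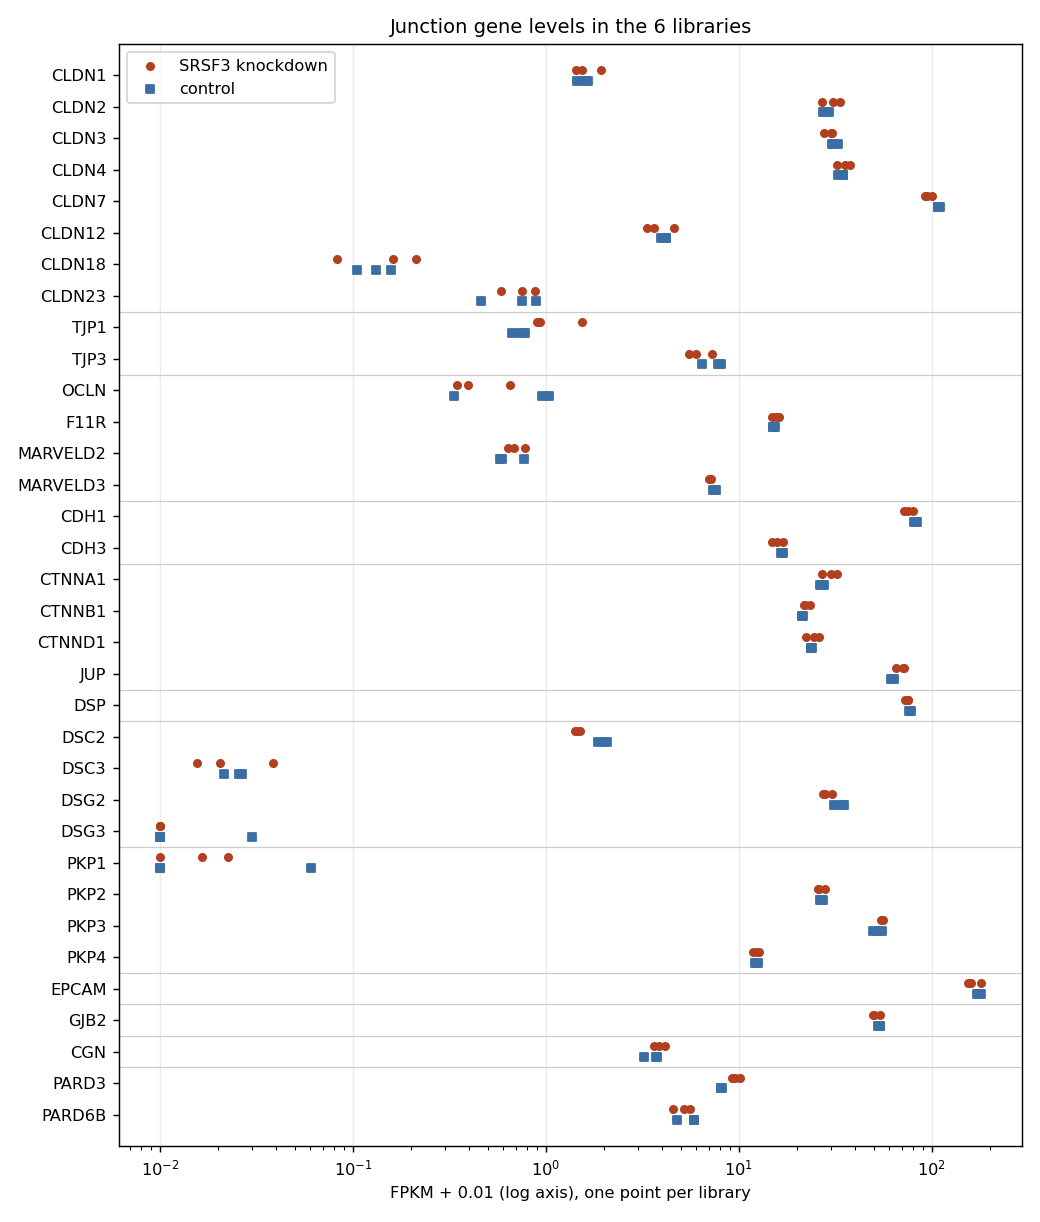
FPKM of the 34 junction genes in each library, with 0.01 added so that zeros can be drawn on the log axis. Circles are libraries labelled SRSF3 knockdown and squares are controls, and lines separate families. Within most genes the 6 points lie close together, while CLDN18, DSC3, DSG3 and PKP1 lie near the low end.

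The claudins were led by CLDN7, whose product binds EPCAM and is common in simple epithelia. CLDN7 stood at 94.6, 99.6 and 91.8 FPKM in knockdown-labelled libraries, against 108, 111 and 107 FPKM in controls. Every library labelled knockdown lay below every control. Its mean FPKM fell by 12.2% (log2 change -0.19, SE 0.05, limma adjusted p = 0.0322), on 6040 to 7311 fragments per library. CLDN7 no longer passed when control library 1 was left out (limma adjusted p = 0.0888), likewise for control 2 (0.155) and 3 (0.1), nor with no filter on low genes (0.0526), over a range of 0.00302 to 0.155 across the alternatives.

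The next 3 claudins were of like abundance. CLDN4, which lowers sodium permeability, stood at 37.7, 35.6 and 32.2 FPKM in knockdown-labelled libraries and 34.5, 34.7 and 32.6 FPKM in controls (limma adjusted p = 0.624). CLDN3, its direct neighbour among protein-coding genes on chromosome 7 and like it a barrier claudin, stood at 30.3, 29.8 and 27.5 FPKM in knockdown-labelled libraries and 32.7, 30.3 and 30.8 FPKM in controls (limma adjusted p = 0.241). CLDN2, which forms a pore for cations and water, stood at 33.6, 30.7 and 27.1 FPKM in knockdown-labelled libraries and 29.3, 28.1 and 27.2 FPKM in controls (limma adjusted p = 0.348). The groups of CLDN3 did not overlap, by a narrow gap. In CLDN2 and CLDN4, library 1 labelled knockdown was the highest of the 6 and library 3 the lowest. Without library 3 labelled knockdown CLDN2 passed (log2 change 0.18, adjusted p = 0.0422, over a range of 0.0422 to 0.873), and CLDN3 passed on the lower side after quantile normalization (0.0310, range 0.0310 to 0.520).

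Each share below is of the summed FPKM of the 8 claudins among the members, and does not move when the whole library is rescaled. Claudins outside the members, such as CLDN15 at a mean of 3.58 FPKM, were left out. CLDN7 made up 46.9%, 49.4% and 49.4% in knockdown-labelled libraries, against 51.1%, 52.7% and 52.5% in controls. CLDN2 made up 16.7%, 15.2% and 14.6% in knockdown-labelled libraries, against 13.9%, 13.4% and 13.3% in controls. CLDN4 made up 17.9 ± 0.71% in knockdown-labelled libraries and 16.3 ± 0.28% in controls (SD, n = 3 each), and in all 3 of these claudins the groups did not overlap. The share of CLDN3 was 14.9 ± 0.14% in knockdown-labelled libraries and 15.0 ± 0.51% in controls. Summed FPKM of these 8 claudins was 201.7, 201.9 and 185.9 in knockdown-labelled libraries and 211.3, 209.9 and 204.3 in controls. The groups did not overlap there either. Shares within a sum are not independent, so a lower CLDN7 by itself raises the shares of the others. In FPKM the groups of CLDN2 and CLDN4 overlapped. These shares and sums are descriptions with no test.

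**Figure D3:**
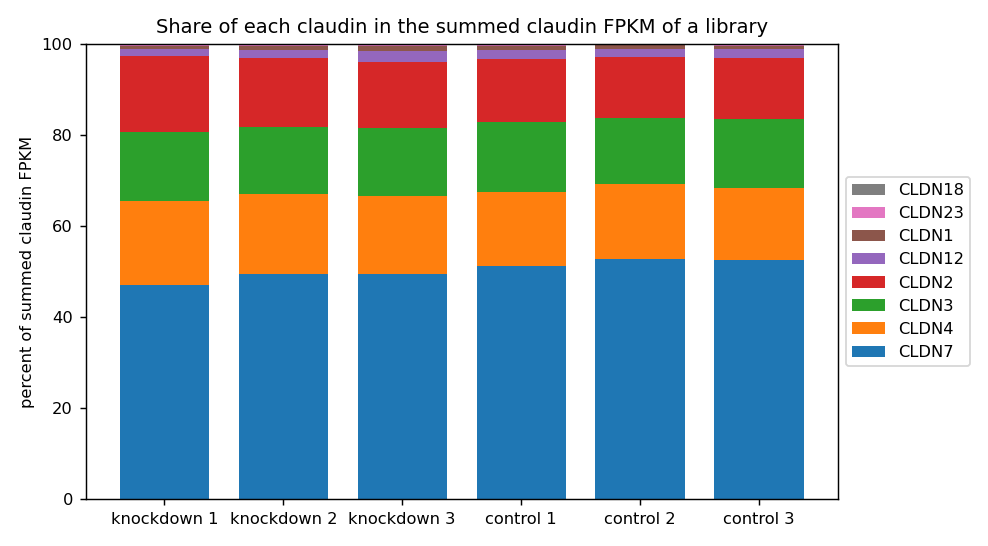
Percent of the summed FPKM of the 8 member claudins held by each of them, 1 bar per library, knockdown-labelled libraries on the left. The CLDN7 block ends between 46.9% and 49.4% in those and between 51.1% and 52.7% in controls, and CLDN7, CLDN4, CLDN3 and CLDN2 together fill nearly the whole bar.

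The remaining claudins were scarce. CLDN12, which has an atypical tail, averaged 3.85 ± 0.673 FPKM in knockdown-labelled libraries and 4.11 ± 0.136 FPKM in controls (limma adjusted p = 0.539). CLDN1, essential for the skin barrier, averaged 1.63 ± 0.259 FPKM in knockdown-labelled libraries and 1.55 ± 0.106 FPKM in controls (limma adjusted p = 0.779). Both groups overlapped in each. CLDN23 lay at 0.451 to 0.882 FPKM over the 6 libraries, from 25 to 47 fragments, and CLDN18, a claudin of stomach and lung, at 0.0724 to 0.201 FPKM, from 7 to 20 fragments. CLDN18 was below the filter and was not tested.

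Among the other membrane proteins of the tight junction, F11R (JAM-A), an immunoglobulin-like adhesion molecule, was the most abundant, at 16.1, 15.6 and 14.8 FPKM in knockdown-labelled libraries and 15.4, 15.0 and 15.0 FPKM in controls (limma adjusted p = 0.673). MARVELD3, a relative of occludin, averaged 7.06 ± 0.0761 FPKM in knockdown-labelled libraries and 7.46 ± 0.141 FPKM in controls, without overlap and without passing the test (limma adjusted p = 0.361). MARVELD2 (tricellulin), found where 3 cells meet, lay at 0.566 to 0.771 FPKM over the 6 libraries, with overlapping groups (limma adjusted p = 0.688). OCLN (occludin) was scattered: it stood at 0.335, 0.641 and 0.385 FPKM in knockdown-labelled libraries and 0.940, 0.324 and 1.03 FPKM in controls, so control library 2 lay below all others. Without that library OCLN passed on the lower side (log2 change -0.45, limma adjusted p = 0.0279), whereas with all 6 it did not (limma adjusted p = 0.242), with a range of 0.0279 to 0.590. Over all 6 the log2 change was -0.26, against -0.56 with a pseudocount of 0.1 FPKM and -0.68 with voom, where it did not pass either. RefSeq lists the pseudogenes OCLNP1, TJP1P1 and CTNNA1P1, and how the authors shared reads between a gene and such a copy is not stated in the labels.

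The ZO scaffolds were unequal. TJP3 (ZO-3) stood at 6.02, 7.23 and 5.52 FPKM in knockdown-labelled libraries and 7.77, 8.02 and 6.43 FPKM in controls (limma adjusted p = 0.145). TJP1 (ZO-1), the scaffold most used to stain tight junctions, was listed at only 0.887, 1.52 and 0.923 FPKM in knockdown-labelled libraries and 0.658, 0.733 and 0.766 FPKM in controls. Its groups did not overlap, but the difference did not pass (log2 change 0.28, SE 0.10, limma adjusted p = 0.0863), and without library 2 labelled knockdown the log2 change was 0.15. With a pseudocount of 0.1 FPKM it was 0.53 and with voom 0.54, and the mean FPKM was 54.5% above that of controls. It passed without library 1 labelled knockdown (adjusted p = 0.0489, over a range of 0.0489 to 0.223). CGN (cingulin), a cytoplasmic plaque protein, averaged 3.87 ± 0.257 FPKM in knockdown-labelled libraries and 3.56 ± 0.310 FPKM in controls (limma adjusted p = 0.363).

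The polarity gene PARD3 rose. PARD3 is the scaffold that recruits the PAR6 and aPKC complex to nascent junctions. It stood at 10.1, 9.19 and 9.51 FPKM in knockdown-labelled libraries, against 8.04, 8.18 and 8.06 FPKM in controls. Every library labelled knockdown exceeded every control, and controls spread little. Mean FPKM was 18.8% higher (log2 change 0.22, SE 0.05, limma adjusted p = 0.0204), on 1286 to 1693 fragments per library. Without control library 1, 2 or 3 the adjusted p was 0.0630, 0.0759 and 0.0796, over a range of 0.0131 to 0.0796. PARD6B, one of the PAR6 genes, averaged 5.09 ± 0.506 FPKM in knockdown-labelled libraries and 5.49 ± 0.634 FPKM in controls, with overlapping groups (limma adjusted p = 0.490).

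At the adherens junction, CDH1 (E-cadherin) and CDH3 (P-cadherin) lie side by side on chromosome 16. CDH1 stood at 79.5, 75.5 and 71.4 FPKM in knockdown-labelled libraries, against 82.5, 83.5 and 81.0 FPKM in controls. All 3 libraries labelled knockdown lay below all controls, yet the difference did not pass (log2 change -0.13, 95% interval from -0.24 to -0.01, limma adjusted p = 0.128). It passed with quantile normalization (adjusted p = 0.00316) and without library 1 labelled knockdown (0.0431), over a range of 0.00316 to 0.335. CDH3 stood at 16.9, 15.7 and 14.8 FPKM in knockdown-labelled libraries and 16.9, 16.7 and 16.6 FPKM in controls (limma adjusted p = 0.344). In both cadherins, library 3 labelled knockdown was the lowest of the 6. Of the FPKM of this pair, CDH1 made up 82.5%, 82.8% and 82.9% in knockdown-labelled libraries, against 83.0%, 83.3% and 83.0% in controls.

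The catenins all had positive log2 changes, apart from CTNND1 under 2 of 14 alternatives (quantile normalization and without library 1 labelled knockdown), and 0 of 4 passed in limma or with voom, while 1 of 4, JUP, had an unadjusted p under 0.05. JUP (plakoglobin), which serves both adherens junctions and desmosomes, stood at 71.0, 71.5 and 65.0 FPKM in knockdown-labelled libraries, against 63.7, 62.2 and 61.4 FPKM in controls (log2 change 0.14, SE 0.05, limma adjusted p = 0.0850). Its groups did not overlap, and without library 3 labelled knockdown it passed (adjusted p = 0.0167, over a range of 0.0167 to 0.535). CTNNA1 (alpha-catenin), the link to actin, stood at 32.1, 29.996 and 27.1 FPKM in knockdown-labelled libraries and 26.4, 27.0 and 27.6 FPKM in controls (limma adjusted p = 0.174), and it also passed without that library (0.0228, range 0.0228 to 0.613). CTNNB1 (beta-catenin), which is also the transducer of WNT signals, stood at 21.7, 22.1 and 23.5 FPKM in knockdown-labelled libraries and 21.5, 21.2 and 21.3 FPKM in controls, without overlap (limma adjusted p = 0.365). CTNND1 (p120-catenin), which holds cadherins at the membrane, stood at 26.1, 24.6 and 22.4 FPKM in knockdown-labelled libraries and 23.6, 24.0 and 23.5 FPKM in controls, with overlapping groups (limma adjusted p = 0.721). At an unadjusted p under 0.05, 8 of the 30 members (26.7%) passed, against 33% of all tested genes.

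The desmosomal cadherins DSC2 and DSG2 fell together. DSC2 (desmocollin 2) stood at 1.41, 1.48 and 1.45 FPKM in knockdown-labelled libraries, against 1.85, 1.99 and 2.06 FPKM in controls. The groups were well apart, and the libraries labelled knockdown spread little. Mean FPKM fell by 26.3% (log2 change -0.28, SE 0.06, limma adjusted p = 0.0146), on 446 to 697 fragments per library, and the log2 change was -0.47 with voom on fragment numbers, where no pseudocount of 1 FPKM is added. DSG2 (desmoglein 2), the desmoglein of simple epithelia, stood at 27.3, 28.1 and 30.4 FPKM in knockdown-labelled libraries, against 31.3, 34.4 and 35.0 FPKM in controls. The lowest control lay just above the highest library labelled knockdown. Its mean FPKM fell by 14.8% (log2 change -0.22, SE 0.06, limma adjusted p = 0.0299). DSC2 no longer passed when control library 2 was left out (adjusted p = 0.0635) or control library 3 (0.0752), over a range of 0.00241 to 0.0752. The call of DSG2 failed without control library 2 (0.125) or 3 (0.125), library 1 (0.0600) or 2 (0.0956) labelled knockdown, and with no filter (0.0750), over a range of 0.0111 to 0.125.

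**Figure D4:**
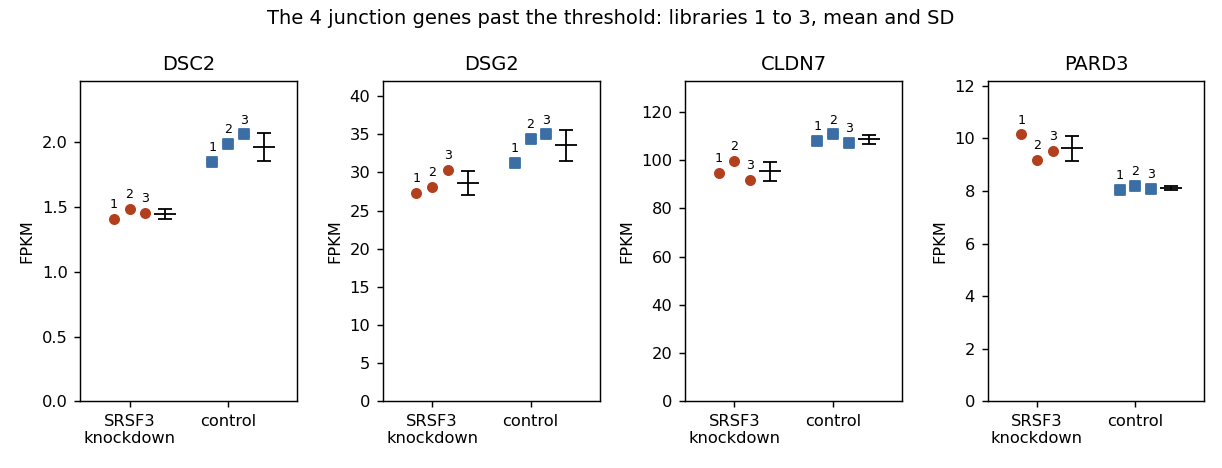
FPKM of DSC2, DSG2, CLDN7 and PARD3 in libraries 1 to 3 of each group, knockdown-labelled libraries on the left, with mean and SD (n = 3) beside the points and axes from 0. The groups do not overlap in any of the 4, with DSC2, DSG2 and CLDN7 lower and PARD3 higher in the libraries on the left.

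The other genes of the same family were at or near 0. DSC3, of stratified epithelia, lies beside DSC2 on chromosome 18, and DSG3 lies beside DSG2 there. DSC3 had 1, 5 and 2 fragments in knockdown-labelled libraries and 2, 3 and 3 in controls. DSG3 was listed at 0 in 5 libraries and at 0.0199 FPKM in control library 3. Of the desmosomal cadherin FPKM, DSG2 made up 95.1 ± 0.26% in knockdown-labelled libraries and 94.4 ± 0.08% in controls (SD, n = 3 each), without overlap.

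The promoter windows of the falling junction genes, and of the scarce neighbours DSC3 and DSG3, are shown so that the sequence around the starts can be read beside these levels. Each window holds 250 bases before and 50 after a RefSeq start (GRCh38.p14), read on the gene's strand. Of the 34 members, 23 had a window, and CDH1 and PARD3 were among the 11 without one. Capitals mark 2 motifs searched on both strands. One is CACCTG, the E-box bound by SNAI and ZEB repressors, which reads as CAGGTG on the other strand. The other is GGGCGG, the GC box bound by SP1, which reads as CCGCCC on the other strand. Of 34796 different windows of all genes, 20.6% held the E-box and 44.9% the GC box. The windows follow in the order DSC2 (chr18:31102372-31102671, minus strand), DSC3 (chr18:31042693-31042992, minus strand), DSG2 (chr18:31497927-31498226, plus strand), DSG3 (chr18:31447491-31447790, plus strand), the outer CLDN7 start (chr17:7263164-7263463, minus strand) and the inner CLDN7 start (chr17:7262429-7262728, minus strand).
DSC2: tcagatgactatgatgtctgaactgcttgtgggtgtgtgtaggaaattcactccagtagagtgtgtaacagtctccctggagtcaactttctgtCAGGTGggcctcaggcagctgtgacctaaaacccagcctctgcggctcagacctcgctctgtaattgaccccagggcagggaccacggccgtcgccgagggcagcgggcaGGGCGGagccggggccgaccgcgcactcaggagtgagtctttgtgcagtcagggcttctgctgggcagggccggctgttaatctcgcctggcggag
DSC3: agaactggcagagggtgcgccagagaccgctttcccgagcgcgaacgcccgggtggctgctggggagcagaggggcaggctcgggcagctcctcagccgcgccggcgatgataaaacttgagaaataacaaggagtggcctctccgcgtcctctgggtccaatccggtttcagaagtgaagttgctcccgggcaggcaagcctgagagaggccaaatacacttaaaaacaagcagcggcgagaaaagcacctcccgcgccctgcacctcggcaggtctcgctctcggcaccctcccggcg
DSG2: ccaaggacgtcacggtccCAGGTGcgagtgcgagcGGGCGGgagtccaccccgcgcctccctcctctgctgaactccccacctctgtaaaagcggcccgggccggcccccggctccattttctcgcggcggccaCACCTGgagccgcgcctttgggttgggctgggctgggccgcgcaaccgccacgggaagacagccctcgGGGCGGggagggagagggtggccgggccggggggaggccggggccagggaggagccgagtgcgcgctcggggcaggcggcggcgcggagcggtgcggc
DSG3: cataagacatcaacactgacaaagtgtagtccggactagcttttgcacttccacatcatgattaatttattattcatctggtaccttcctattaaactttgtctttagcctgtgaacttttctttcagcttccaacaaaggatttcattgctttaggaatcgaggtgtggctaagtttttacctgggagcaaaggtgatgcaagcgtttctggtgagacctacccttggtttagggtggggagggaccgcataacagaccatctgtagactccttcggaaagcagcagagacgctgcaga
CLDN7 outer: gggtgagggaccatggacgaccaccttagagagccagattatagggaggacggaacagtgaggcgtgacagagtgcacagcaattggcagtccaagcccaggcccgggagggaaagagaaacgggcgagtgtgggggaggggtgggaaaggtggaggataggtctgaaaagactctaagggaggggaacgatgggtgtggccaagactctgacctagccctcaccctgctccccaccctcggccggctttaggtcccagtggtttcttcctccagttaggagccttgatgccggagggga
CLDN7 inner: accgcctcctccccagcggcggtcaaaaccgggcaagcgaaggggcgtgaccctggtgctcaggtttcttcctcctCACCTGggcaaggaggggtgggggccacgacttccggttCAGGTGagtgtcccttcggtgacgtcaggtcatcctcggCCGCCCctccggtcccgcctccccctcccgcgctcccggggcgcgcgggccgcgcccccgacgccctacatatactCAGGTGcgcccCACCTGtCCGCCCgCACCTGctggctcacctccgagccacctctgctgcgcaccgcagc

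The DSC2 window shown held 1 E-box, its first base 156 before the start (position -156), and 1 GC box at -46. DSC2 has a second, inner window in RefSeq (chr18:31101211-31101510, minus strand, not shown), which held 0 E-boxes and 2 GC boxes, at -118 and -36. The DSG2 window held 2 of each, with E-boxes at -232 and -116 and GC boxes at -215 and -48. The inner CLDN7 window held 5 E-boxes, at -174, -135, -20, -9 and 6 (counted from 1 at the start), and 2 GC boxes, while the outer one held 0 of both. The windows of DSC3 and DSG3 held 0 of both. No match overlapped another in these windows. GC content was 60.7% in DSC2, 63.3% in DSC3, 76.7% in DSG2 and 44.0% in DSG3, with 15, 25, 36 and 6 CpG steps, beside medians of 58.7% and 14 over all windows. Of the 22 outermost windows of the members, 8 held an E-box, including those of DSP, CLDN3, TJP1, OCLN and GJB2, which did not pass the test. The share given for all genes includes inner starts and was not matched for GC content. It is therefore no like background for that count. A match describes letters only, and no binding was measured here. Which start is used in these cells was not measured either.

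DSP and the plakophilins, which form the desmosomal plaque, did not pass the test. DSP (desmoplakin), which anchors keratin filaments, stood at 74.8, 74.955 and 72.6 FPKM in knockdown-labelled libraries and 76.6, 78.0 and 77.0 FPKM in controls (limma adjusted p = 0.403). The groups did not overlap, and the 95% interval of the log2 change ran from -0.16 to 0.04. With quantile normalization DSP passed on the lower side (adjusted p = 0.0204, over a range of 0.0204 to 0.658). PKP3, the plakophilin of most epithelia, stood at 55.0, 55.9 and 54.4 FPKM in knockdown-labelled libraries and 55.4, 52.8 and 49.7 FPKM in controls (limma adjusted p = 0.407). PKP2, the plakophilin of simple epithelia and heart, stood at 25.8, 26.021 and 27.8 FPKM in knockdown-labelled libraries and 27.3, 26.4 and 26.9 FPKM in controls (limma adjusted p = 0.820). Both overlapped between groups. PKP4 (p0071) averaged 12.3 ± 0.436 FPKM in knockdown-labelled libraries and 12.4 ± 0.226 FPKM in controls, with overlapping groups and a log2 interval from -0.12 to 0.11. PKP1, of stratified epithelia, had 0 to 8 fragments per library and was not tested.

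Within a library, the FPKM of DSG2 was 19.4, 18.9 and 20.9 times that of DSC2 in knockdown-labelled libraries, against 16.9, 17.3 and 17.0 times in controls. The FPKM of JUP was 2.60, 2.55 and 2.14 times that of DSG2 in knockdown-labelled libraries, against 2.04, 1.81 and 1.76 times in controls. The FPKM of CDH1 was 3.66, 3.41 and 3.04 times that of CTNNB1 in knockdown-labelled libraries, against 3.83, 3.94 and 3.79 times in controls. These groups did not overlap in any of the 3 ratios. For JUP over DSG2 and CDH1 over CTNNB1 this was fixed by the levels given above. There, the groups of both genes already lay apart, in opposite directions, so these ratios add no result. DSG2 and DSC2 passed the test on the same values, so ratios that hold them are not separate results. The FPKM of EPCAM was 1.91, 1.54 and 1.74 times that of CLDN7 in knockdown-labelled libraries, against 1.59, 1.59 and 1.68 times in controls, and these overlapped. Groups also overlapped for DSP over DSG2, at 2.74, 2.67 and 2.39 in knockdown-labelled libraries and 2.45, 2.27 and 2.20 in controls. They overlapped for JUP over CTNNB1, at 3.27, 3.23 and 2.77 in knockdown-labelled libraries and 2.96, 2.93 and 2.88 in controls. For CDH1 over CDH3 they did not, at 4.70, 4.81 and 4.84 in knockdown-labelled libraries and 4.89, 5.00 and 4.89 in controls. The ratios were chosen with the levels known and carry no test.

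EPCAM, a homophilic adhesion molecule of epithelia and carcinomas, was the most abundant member. It stood at 180.3, 154 and 159.7 FPKM in knockdown-labelled libraries and 171, 176 and 181 FPKM in controls, with library 1 labelled knockdown among the controls (limma adjusted p = 0.316). It passed on the lower side without that library (0.0431) and with quantile normalization (0.0210), over a range of 0.0210 to 0.669. GJB2 (connexin 26), a gap junction channel subunit, stood at 53.7, 50.1 and 49.4 FPKM in knockdown-labelled libraries and 53.6, 52.6 and 53.8 FPKM in controls (limma adjusted p = 0.414; 0.0343 with quantile normalization, range 0.0343 to 0.621). In bulk RNA, fewer cells with a transcript and less of it per cell cannot be told apart.

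**Figure D5:**
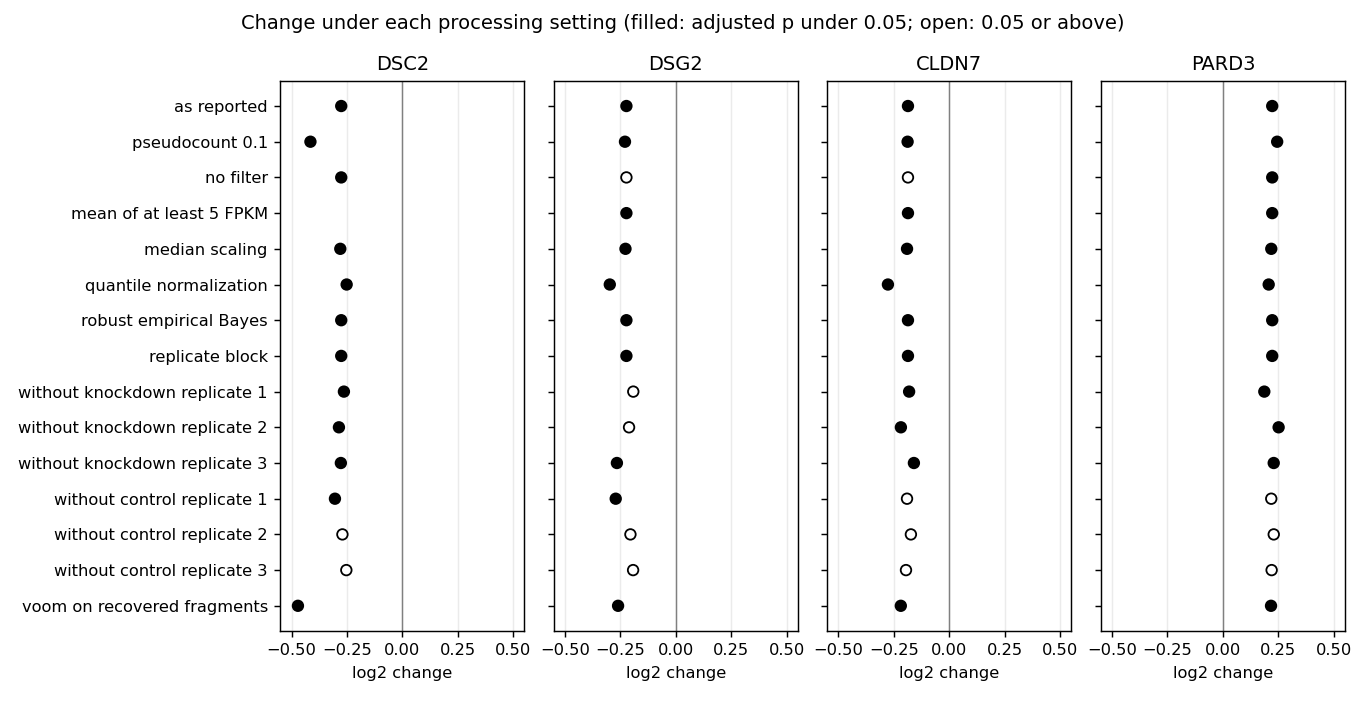
Log2 change of DSC2, DSG2, CLDN7 and PARD3 under each setting of the processing, filled where the adjusted p was under 0.05 and open where it was not. No point crosses 0, and without control library 3 all 4 points are open. DSC2 has no point at a mean of at least 5 FPKM, a filter it does not reach.

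Other junction genes were counted from lists of the same pathways, which were not tested as sets. Over all 10823 tested genes, 10.9% were higher and 5.91% lower in knockdown-labelled libraries, with a median log2 change of 0.02. Of 26 further tight junction genes tested, 2 rose and 1 fell in knockdown-labelled libraries, with a median log2 change of 0.03. SYMPK, a nuclear RNA-processing factor also seen at tight junctions, stood at 24.4, 24.7 and 22.3 FPKM in knockdown-labelled libraries, against 21.1, 20.2 and 19.3 FPKM in controls (limma adjusted p = 0.0232). Of the angiomotins, junctional scaffolds that bind YAP, AMOTL2 rose to 46.4 ± 1.38 FPKM in knockdown-labelled libraries, against 40.3 ± 0.902 FPKM in controls (limma adjusted p = 0.0190), while AMOT fell to 0.926 ± 0.0599 FPKM in knockdown-labelled libraries, against 1.31 ± 0.123 FPKM in controls (limma adjusted p = 0.0256). Of 18 further adherens junction genes, 2 were higher and 2 lower (median log2 change 0.03). ZYX (zyxin), a tension-sensing protein of actin-bound junctions, stood at 8.16, 8.06 and 6.56 FPKM in knockdown-labelled libraries, against 5.54, 5.07 and 4.63 FPKM in controls (log2 change 0.50, limma adjusted p = 0.00475), and it passed in 14 of 14 alternatives. NECTIN2, an immunoglobulin-like adhesion receptor, rose to 43.8 ± 3.52 FPKM in knockdown-labelled libraries, against 36.1 ± 1.02 FPKM in controls (limma adjusted p = 0.0171). AFDN (afadin), which binds nectins inside the cell, fell to 7.65 ± 0.174 FPKM in knockdown-labelled libraries, against 8.81 ± 0.166 FPKM in controls (limma adjusted p = 0.0338). IQGAP1, an actin-binding scaffold, fell to 17.1 ± 0.687 FPKM in knockdown-labelled libraries, against 19.6 ± 0.158 FPKM in controls (limma adjusted p = 0.0272).

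Of 9 further desmosome and hemidesmosome genes tested, 2 were higher and 1 lower (median log2 change 0.03). Of all tested genes, 10.9% were higher and 5.91% lower. COL17A1, the transmembrane collagen of hemidesmosomes, stood at 2.67, 2.96 and 2.54 FPKM in knockdown-labelled libraries, against 1.95, 1.86 and 1.99 FPKM in controls (limma adjusted p = 0.00741). PERP, a desmosome protein and p53 target, stood at 239, 226 and 242 FPKM in knockdown-labelled libraries, against 205, 207 and 204 FPKM in controls (limma adjusted p = 0.0314). PPL (periplakin), which like desmoplakin binds keratins, fell to 32.8 ± 1.74 FPKM in knockdown-labelled libraries, against 37.7 ± 1.52 FPKM in controls (limma adjusted p = 0.0364).

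Of 14 tested regulators of epithelial state, 2 were higher and 2 lower (median log2 change -0.06), beside 10.9% and 5.91% of all tested genes. SNAI1, the E-box repressor of CDH1, stood at 1.37, 1.55 and 1.02 FPKM in knockdown-labelled libraries, against 0.459, 0.743 and 0.781 FPKM in controls (log2 change 0.48, SE 0.10, limma adjusted p = 0.0128). ELF3, an ETS factor of epithelia, stood at 1.47, 1.35 and 1.26 FPKM in knockdown-labelled libraries, against 2.63, 2.85 and 2.80 FPKM in controls (log2 change -0.67, SE 0.06, limma adjusted p = 1.99e-04). The epithelial splicing regulators moved in opposite directions: ESRP2 rose to 28.3 ± 1.31 FPKM in knockdown-labelled libraries, against 24.2 ± 1.46 FPKM in controls (limma adjusted p = 0.0272), and ESRP1 fell to 1.87 ± 0.148 FPKM in knockdown-labelled libraries, against 2.52 ± 0.407 FPKM in controls (limma adjusted p = 0.0430). The groups of SNAI1 and of ELF3 did not overlap. ELF3 and COL17A1 passed in 13 of 13 alternatives, SNAI1 in 11 of 13, SYMPK, NECTIN2 and IQGAP1 in 10 of 14, AMOTL2, AFDN and ESRP2 in 9 of 14, AMOT in 9 of 13, PERP and PPL in 8 of 14 and ESRP1 in 6 of 13. GRHL2, an activator of CDH1 and claudin genes, averaged 6.38 ± 0.217 FPKM in knockdown-labelled libraries and 6.70 ± 0.481 FPKM in controls and did not pass (limma adjusted p = 0.540).

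The lncRNA table held 3 transcripts named as antisense to a member, and all were scarce. PARD3-AS1 had 2, 5 and 1 fragments in knockdown-labelled libraries and 1, 0 and 3 in controls (limma adjusted p = 0.735). DSG2-AS1 had 2, 3 and 4 fragments in knockdown-labelled libraries and 4, 4 and 6 in controls, and PKP4-AS1 had 1, 8 and 5 in knockdown-labelled libraries and 10, 5 and 11 in controls. DSG2-AS1 and PKP4-AS1 lay below the filter of 0.1 FPKM and were not tested. The labels do not state whether the authors counted by strand, so reads of an antisense transcript and its partner cannot be told apart.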

How the data were processed

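The authors deposited FPKM values per gene symbol in an mRNA table and a lncRNA table, with 6 libraries in each. Per the submitters' processing notes, the tools used included StringTie, HISAT2, edgeR and Cuffdiff; what each did is not recorded. Not given in the sources used here are the genome build, the annotation, and which of the poly-A and rRNA-depleted preparations in the labels' protocols gave the values. Whole fragments were recovered from the FPKM steps for 19406 of 19434 rows (99.9%, tolerance 0.003 fragments), and 1 FPKM is 24.6 to 27.4 fragments per kilobase. A length at or near the shortest that fitted was kept for each row. The fragment numbers of scarce rows are therefore the smallest that fit, and a longer length could give multiples of them. The intervals rest on the spread among libraries of a group, which eBayes draws toward a trend over all tested genes. They therefore do not measure a gene's own spread alone. That spread holds counting noise as well, and the parts were not separated.

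mRNA rows averaging 0.5 FPKM or more were tested on log2(FPKM + 1) with limma 3.58.1 in R 4.3.3 (lmFit, eBayes with trend, two-sided, Benjamini-Hochberg over all tested genes, threshold 0.05). lncRNA rows averaging 0.1 FPKM or more were tested on log2(FPKM + 0.1). The fit was also run on simulated data with 200 changed genes, a fixed spread beyond counting noise and no shift of a whole library. These settings differ from the libraries described here, and no result above rests on that run. The alternatives were another pseudocount, 2 other filters, 2 scalings, robust empirical Bayes, voom on recovered fragments, a replicate block and each library left out. Promoter windows are from RefSeq. Members, lists and tests were chosen with earlier results of these data known. All 34 members are given, with every library's value for those that passed and those with a mean of at least 20 FPKM. Of the wider lists, genes past the threshold are named, except in the gap junction list, which is not reported here, and GRHL2 was added after its values were seen. Limma adjusted p-values are quoted throughout.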

Additional observations from a re-analysis of the deposited data

How the results depend on the processing

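Leaving out 1 library moved the number of genes called between 647 and 2742, against 1819 with all 6, and 960 were called with no filter. The number of junction genes called higher lay between 0 and 4, and lower between 0 and 4, over the same leave-outs, beside 3.59% to 16.4% of all genes higher and 2.23% to 8.93% lower. Without control library 3 no member passed, and without control library 2 OCLN alone did. With no filter 1 member was lower, beside 2.24% of all genes. With quantile normalization 8 members were lower, beside 7.47% of all tested genes, and 50.3% of calls were higher, against 64.8% as reported. That share was 49.6% with voom. The cause of these moves was not tested. The leave-out fits held fewer libraries, and the fit with no filter held more genes. Of the member-level values over the alternatives, 373 kept their direction and their side of the threshold, 13 gained a call, 14 lost one and 12, of 8 members that passed in no alternative, changed sign. With quantile normalization the log2 change was -0.035 for CLDN4, -0.021 for F11R, -0.047 for CTNND1 and -0.033 for PKP3. Over the leave-outs it ran from -0.041 to 0.092 for CLDN1, -0.0027 to 0.11 for CLDN4, -0.070 to 0.12 for CLDN23, -0.016 to 0.090 for CTNND1, -0.052 to 0.0013 for PKP2 and -0.027 to 0.020 for PKP4.

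Libraries with the same number deviated together with correlations of 0.08, 0.04 and 0.28, and not every library correlated best with its own number, so the numbers were not taken as pairs. With the replicate block 2323 genes were called, and 1 member was higher and 4 lower, TJP3 being the addition (adjusted p = 0.0305). An edgeR fit on recovered fragments was planned and not run.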
